A study of Homo sapiens with 12 samples.

Results

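The 9 genes described here, HLA-B, HLA-C, HLA-E, HLA-F, B2M, TAP1, TAP2, TAPBP and PSMB9, serve the presentation of peptides on major histocompatibility complex (MHC) class I, and they were picked by symbol from the 20531 genes listed for each library. RNAseq of SKBR-3 cells was examined in 12 libraries, 3 replicates in each of 4 groups. SKBR-3 is an established human breast cancer line with amplified HER2, so the results concern 1 cell line in culture. The groups were non-targeting (NT) siRNA with DMSO, NT siRNA with lapatinib, FOXA1 siRNA with DMSO, and FOXA1 siRNA with lapatinib. Every group was transfected with an siRNA pool, for 48 h by the labels, and then kept for 24 h in DMSO or in lapatinib at 300 nM. Lapatinib is a kinase inhibitor of HER2 and EGFR, and FOXA1 is a pioneer transcription factor of luminal breast cells. The design asks how these genes respond to the drug, how they respond to loss of FOXA1, and whether the drug response depends on FOXA1.

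MHC class I molecules show short peptides from inside the cell to CD8+ T cells and to natural killer cells. The proteasome cuts cytosolic proteins, the TAP1 and TAP2 transporter moves the peptides into the endoplasmic reticulum, and tapasin, the product of TAPBP, holds the empty class I molecule at the transporter until a peptide binds. A class I molecule is a heavy chain encoded by an HLA gene together with beta-2 microglobulin, encoded by B2M, and tumours with little of any of these parts are harder for T cells to see.

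All of the genes except B2M, which lies on chromosome 15, are in the MHC on chromosome 6. By RefSeq on GRCh38.p14 the heavy chain genes occupy chr6:29723434-29738532 (HLA-F, plus strand), chr6:30489509-30494194 (HLA-E), chr6:31268749-31272092 (HLA-C, minus strand) and chr6:31353875-31357179 (HLA-B, minus strand). TAP2 lies at chr6:32821831-32838739, TAP1 at chr6:32845209-32853704 and TAPBP at chr6:33299694-33314078, all on the minus strand, PSMB9 at chr6:32854192-32859851 and B2M at chr15:44711517-44718145 on the plus strand. TAP1 and PSMB9 are read away from each other from starts separated by 487 bases.

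The 250 bases before the annotated start are shown, 5′ to 3′ on the strand of the gene, for the transporter, tapasin and B2M genes, whose levels moved with the treatments, and for HLA-B and HLA-C, the classical heavy chains that fell after FOXA1 siRNA. Capitals mark GAAA, any 2 bases and GAAA again, on either strand, which are the core letters of an interferon-stimulated response element, the sequence bound by interferon regulatory factors.
TAP1 (chr6:32853705-32853954): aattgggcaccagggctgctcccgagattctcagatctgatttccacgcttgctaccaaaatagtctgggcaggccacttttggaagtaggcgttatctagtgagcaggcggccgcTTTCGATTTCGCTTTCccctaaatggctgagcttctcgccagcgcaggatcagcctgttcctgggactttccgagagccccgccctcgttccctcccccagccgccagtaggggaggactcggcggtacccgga
TAP2 (chr6:32838740-32838989): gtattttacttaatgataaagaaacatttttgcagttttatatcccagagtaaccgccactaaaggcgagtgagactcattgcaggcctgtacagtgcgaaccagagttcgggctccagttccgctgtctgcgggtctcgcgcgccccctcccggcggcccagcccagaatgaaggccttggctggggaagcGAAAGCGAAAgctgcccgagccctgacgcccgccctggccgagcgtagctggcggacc
TAPBP (chr6:33314079-33314328): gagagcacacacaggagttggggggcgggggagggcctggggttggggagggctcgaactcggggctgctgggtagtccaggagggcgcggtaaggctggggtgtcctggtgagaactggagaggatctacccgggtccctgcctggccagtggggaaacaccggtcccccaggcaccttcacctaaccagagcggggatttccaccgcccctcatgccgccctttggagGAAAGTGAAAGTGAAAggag
B2M (chr15:44711267-44711516): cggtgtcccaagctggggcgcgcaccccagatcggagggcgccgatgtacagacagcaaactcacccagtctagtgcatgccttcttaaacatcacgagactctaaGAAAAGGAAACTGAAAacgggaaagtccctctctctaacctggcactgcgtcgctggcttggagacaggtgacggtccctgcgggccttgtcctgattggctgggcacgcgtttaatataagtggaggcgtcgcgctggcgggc
HLA-B (chr6:31357180-31357429): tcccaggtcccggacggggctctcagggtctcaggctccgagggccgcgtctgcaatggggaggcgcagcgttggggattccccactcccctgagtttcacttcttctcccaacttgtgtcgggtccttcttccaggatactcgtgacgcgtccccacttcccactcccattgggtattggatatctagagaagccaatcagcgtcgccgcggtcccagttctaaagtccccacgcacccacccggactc
HLA-C (chr6:31272093-31272342): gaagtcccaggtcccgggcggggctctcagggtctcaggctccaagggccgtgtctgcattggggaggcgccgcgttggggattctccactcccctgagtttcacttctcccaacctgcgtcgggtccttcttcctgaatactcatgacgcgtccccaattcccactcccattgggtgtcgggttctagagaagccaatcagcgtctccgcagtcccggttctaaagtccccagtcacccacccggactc
The sequences are from RefSeq promoter windows, which held 8 of the 9 genes, and HLA-E was not among them. This core was found in the windows of 5 of those 8 genes, TAP1, TAP2, TAPBP, B2M and HLA-F, and in 3.02% of 35116 RefSeq windows of this length. TAP1, TAPBP and B2M each held 2 overlapping matches. TAP1 also had a window at a start further downstream, which held none. The letters of a FOX binding motif, GTAAACA or GTCAACA on either strand, were not found in any of the windows of these genes, and were found in 2.98% and 1.95% of all windows. CCAAT, the letters of the Y box of class I promoters, occurred 3 times in the window of HLA-B and 4 times in that of HLA-C on either strand, and at least once in 32.0% of all windows. A match is a description of the letters and not evidence of binding. The lack of a match, as in HLA-B and HLA-C, is likewise not evidence that no such element is present.

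The library totals were between 25749578 and 32271850 expected counts, which are estimated numbers of reads per gene. Normalized counts below are rounded expected counts divided by a TMM-scaled library size and brought to the average depth, and TPM, a deposited measure of transcript abundance relative to all transcripts of a library, corrects for gene length. FOXA1 itself was checked first and stood at 8444, 8307 and 8765 normalized counts in the replicates 1 to 3 of NT siRNA with DMSO and at 1159.8, 1362 and 1563 after FOXA1 siRNA in DMSO. In lapatinib it stood at 12669.5, 12166 and 13174 with NT siRNA and at 1641, 1888 and 2383 with FOXA1 siRNA, so every FOXA1 siRNA library lay below every NT library. All 7 epithelial and HER2-amplicon markers were present, with 449877 to 778737 counts per library in sum. Of 10 leukocyte markers 6 reached 3 counts in any library, and their summed counts were 483 to 760, 706 to 1154, 636 to 912 and 907 to 1328 in the groups in the order above, of which CD68 alone held 450 to 1299. Lapatinib raised CD68 on the log2 scale by 0.89 in NT cells and by 0.65 after FOXA1 siRNA. The T cell and B cell markers CD3D and MS4A1 did not exceed 1 count, and PTPRC, the pan-leukocyte marker CD45, did not exceed 5 counts. The 6 fibroblast markers summed to 496 to 533, 246 to 382, 411 to 555 and 316 to 406 counts in the same order, nearly all from COL1A1, and the 3 endothelial markers to 558 to 731, 264 to 419, 453 to 564 and 481 to 776, mostly from CDH5, whose lapatinib response also differed between the siRNAs (1.30 ± 0.34, adjusted p = 0.0369). LUM and MS4A1 were at 0 in every library, and the part of these markers in the results below was not tested.

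B2M was by far the most abundant of the 9 messages per length, and the classical heavy chains HLA-B and HLA-C were among the least. In NT siRNA with DMSO the TPM of B2M was 559 ± 52.2 (SD, n = 3), above 98.4% of the genes that reached 10 counts in any of the 12 libraries. HLA-E, a non-classical heavy chain that presents signal peptides of other class I chains to natural killer cells, followed at 142 ± 13.3 TPM, and TAPBP at 71 ± 17.3 TPM. TAP1 and TAP2 stood at 19.2 ± 2.84 and 16.5 ± 1.76 TPM, HLA-C at 9.88 ± 2.49 TPM and HLA-B at 5.97 ± 1.33 TPM. PSMB9, an interferon-inducible catalytic subunit of the immunoproteasome, stood at 1.02 ± 0.476 TPM and HLA-F, another non-classical heavy chain, at 0.15 ± 0.0866 TPM. In this group the only neighbours in the order whose libraries overlapped were TAP1 and TAP2.

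**Figure D1:**
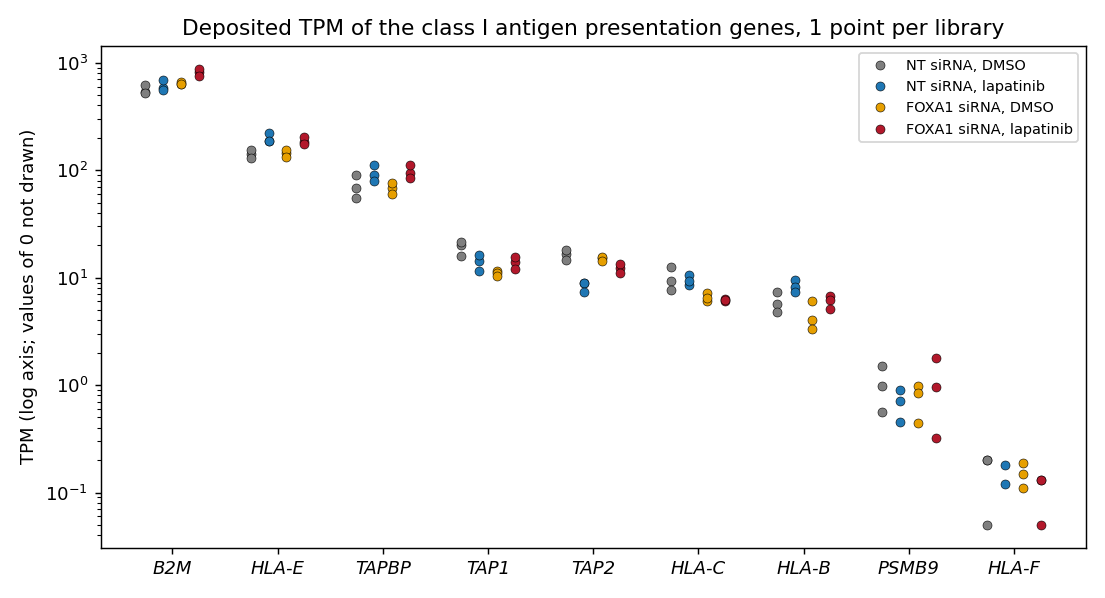
Deposited TPM on a log axis for the 9 genes, 1 point per library, coloured by group and ordered by the mean in NT siRNA with DMSO. B2M, HLA-E and TAPBP stand above the other genes in every group, and TAP2 with NT siRNA and lapatinib drops to the level of HLA-B and HLA-C.

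The top of the order, B2M, HLA-E and TAPBP, was the same in all 4 groups, with no overlap between neighbours, and PSMB9 and HLA-F were always last. The middle changed with treatment. With NT siRNA and lapatinib TAP2 stood at 8.38 ± 0.88 TPM, between HLA-C at 9.44 ± 1.02 and HLA-B at 8.34 ± 1.06, and its libraries overlapped those of both. After FOXA1 siRNA in DMSO TAP2 stood at 15 ± 0.588 TPM and TAP1 at 11 ± 0.493 TPM, and every library of TAP2 was above every library of TAP1. With FOXA1 siRNA and lapatinib TAP1 at 13.8 ± 1.78 TPM and TAP2 at 12.2 ± 1.18 TPM overlapped again, as did HLA-C and HLA-B.

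HLA-E held most of the counts of the heavy chain genes examined. Of the summed counts of HLA-B, HLA-C, HLA-E, HLA-F, HLA-G, HLA-H, HLA-J and HLA-L, it made up between 90.2% and 94.8% in a library. HLA-C made up 2.61% to 5.40% and HLA-B 2.16% to 4.03%. These genes are related in sequence, and the classical ones differ between people. Reads of an allele unlike the reference can therefore be lost or given to a relative by the counting. The part of this in the low counts of the classical genes was not tested.

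Each pair of groups was tested on its own 6 libraries with the quasi-likelihood test of edgeR, and a gene was called where its p, adjusted by Benjamini-Hochberg over all genes, was under 0.05. HLA-F stayed under the minimum of 10 counts in every library and was not tested, so counts of calls are out of 8 genes. Lapatinib with NT siRNA raised HLA-E and TAPBP and lowered TAP1 and TAP2. That is 2 higher and 2 lower of 8, where 30.5% of the 13713 genes tested were higher and 29.2% lower. With FOXA1 siRNA, lapatinib raised 5 of 8, HLA-B, HLA-E, B2M, TAP1 and TAPBP, and lowered TAP2, where 29.0% of 13745 genes were higher and 29.1% lower. FOXA1 siRNA in DMSO raised B2M and lowered HLA-C and TAP1, where 21.9% of 13694 genes were higher and 21.3% lower. FOXA1 siRNA in lapatinib raised B2M and TAP2 and lowered HLA-B and HLA-C, where 22.7% of 13727 genes were higher and 22.2% lower.

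None of the called genes passed a log2 fold change of 1 in size, with TAP2 just short of it at -0.99 ± 0.11 for lapatinib with NT siRNA, where 13.8%, 10.1%, 6.84% and 8.41% of all genes were called and did so in the 4 comparisons in that order. TAP2 was called and past 1 in size, between -1.0 and -1.02, in 6 of 7 alternatives that kept all libraries, which were RLE and upper-quartile scaling, DESeq2, no count minimum, 10 counts in every library and all 12 libraries in 1 model. The median log2 fold change of the 8 genes was 0.05 and 0.41 for lapatinib with NT and with FOXA1 siRNA, and -0.29 and 0.01 for FOXA1 siRNA in DMSO and in lapatinib, while the median of all genes tested was 0.03, 0.01, -0.01 and -0.01. The comparisons share groups of libraries and are not independent of each other. In bulk RNA, fewer cells that express a gene and less RNA per cell cannot be told apart, and since the labels do not say whether replicates were separate cultures, the p-values measure only the spread between these libraries.

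**Figure D2:**
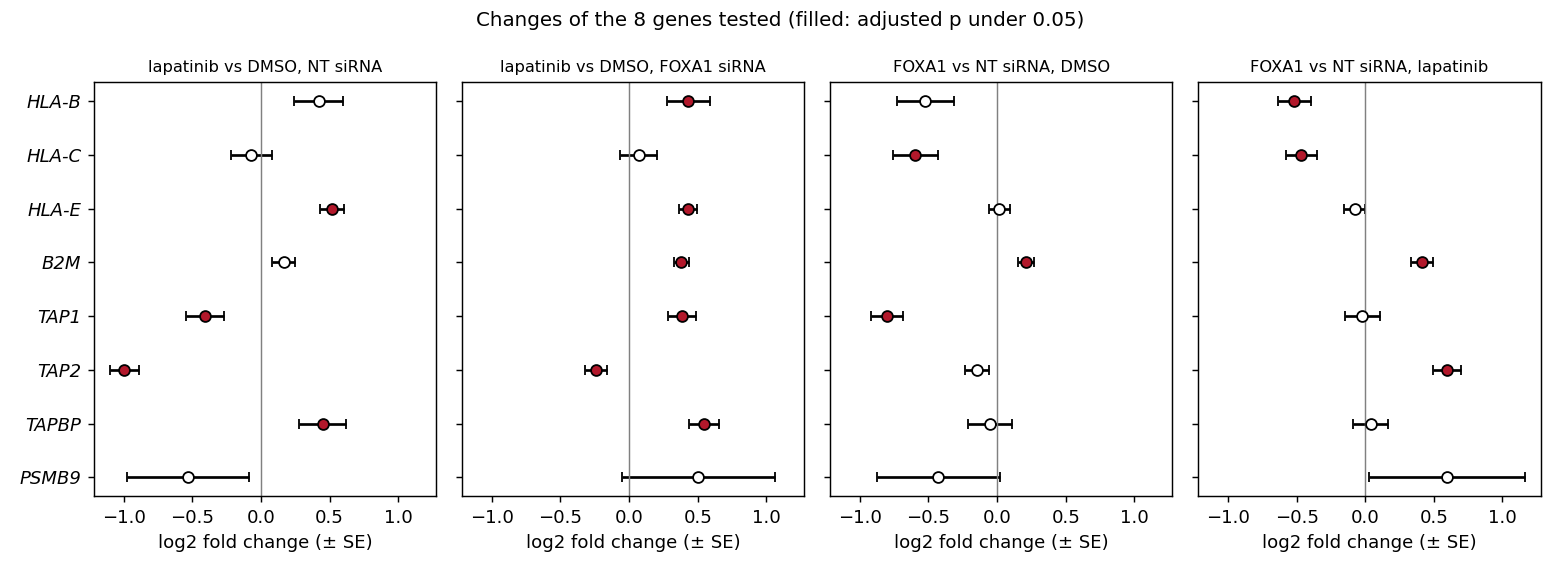
Log2 fold change (x axis, ± SE) of the 8 genes tested in each of the 4 comparisons, filled where the adjusted p is under 0.05. The points of TAP2 and TAP1 shift to the right from the NT to the FOXA1 siRNA panel of lapatinib, and HLA-B and HLA-C lie left of 0 in both panels of FOXA1 siRNA.

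When a replicate block was added to the model, which takes out differences shared by libraries of the same number, 3 genes were higher and 2 lower for lapatinib with NT siRNA (34.5% and 32.8% of all genes). With FOXA1 siRNA the block left 5 higher and 1 lower (34.5% and 34.1%), and for FOXA1 siRNA in lapatinib 2 and 2 (30.6% and 31.1%). For FOXA1 siRNA in DMSO it gave 1 higher and 4 lower (30.3% and 30.2%), with HLA-B and TAP2 added to HLA-C and TAP1.

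The classical heavy chain genes HLA-B and HLA-C, which present peptides to CD8+ T cells, fell after FOXA1 siRNA, HLA-C in both drug conditions and HLA-B in lapatinib, and HLA-B rose with lapatinib in FOXA1-depleted cells. HLA-B had 125, 177 and 118 normalized counts in replicates 1 to 3 of NT siRNA with DMSO and 198, 172 and 185 with lapatinib. After FOXA1 siRNA it had 112, 98.6 and 79.9 in DMSO and 135, 135 and 119 in lapatinib. The FOXA1 siRNA libraries lay below the NT libraries of the same drug without overlap, and in DMSO the gap between the nearest libraries was small. In lapatinib HLA-B fell 1.43-fold, a log2 fold change of -0.52 ± 0.12 (SE) with an adjusted p of 0.00908. In DMSO the log2 fold change was -0.52 ± 0.20 with an adjusted p of 0.0721, and it was called with the replicate block (0.012) and with all 12 libraries in 1 model (0.0234).

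The lapatinib log2 fold change of HLA-B was 0.43 ± 0.15 (adjusted p = 0.0401) with FOXA1 siRNA, and 0.42 ± 0.18 (adjusted p = 0.0724) with NT siRNA, where replicate 2 was at 177 in DMSO and at 172 in lapatinib. Their difference was 0.02 ± 0.24 (adjusted p = 0.976). Without replicate 2 of NT siRNA with DMSO the response with NT siRNA was called (0.0059). The call with FOXA1 siRNA was lost without replicate 2 or 3 of DMSO (0.0679 and 0.122), without replicate 1 or 2 of lapatinib (0.102 and 0.0857), with DESeq2 (0.0708) and with all 12 libraries in 1 model (0.051).

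HLA-C had 206, 238 and 169.6 normalized counts in NT siRNA with DMSO and 178, 209 and 189 with lapatinib. With FOXA1 siRNA it had 117, 151 and 134 without and 135, 149 and 135 with lapatinib. All 6 FOXA1 siRNA libraries lay below all 6 NT libraries, and the drug groups overlapped under either siRNA. FOXA1 siRNA lowered HLA-C by 1.51-fold in DMSO (log2 fold change -0.60 ± 0.16, adjusted p = 0.0199) and by 1.38-fold in lapatinib (-0.46 ± 0.11, adjusted p = 0.0115). The lapatinib log2 fold change was -0.07 ± 0.15 with NT and 0.07 ± 0.13 with FOXA1 siRNA. In DMSO the call was lost without replicate 1 of NT siRNA (0.0578) and without replicate 1 or 3 of FOXA1 siRNA (0.0692 and 0.0594).

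HLA-E rose with lapatinib under either siRNA and did not pass the test for FOXA1 siRNA. It had 3823, 3977 and 3388 normalized counts in NT siRNA with DMSO and 4914, 5857 and 5003 with lapatinib. With FOXA1 siRNA it had 3763, 3976 and 3481 without and 4885, 5412 and 4729 with lapatinib, so the lapatinib libraries stood above all DMSO libraries and the siRNA groups overlapped. The rise was 1.43-fold with NT siRNA (log2 fold change 0.52 ± 0.09, adjusted p = 0.00105) and 1.35-fold with FOXA1 siRNA (0.43 ± 0.07, adjusted p = 0.000763), and both calls held with any 1 library left out. The difference between these responses was -0.07 ± 0.12 (adjusted p = 0.784). FOXA1 siRNA gave 0.02 ± 0.08 in DMSO and -0.08 ± 0.08 in lapatinib.

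HLA-F was near the floor. It had 5, 3 and 2 counts in NT siRNA with DMSO, 4, 4 and 0 with lapatinib, 3, 5 and 6 in FOXA1 siRNA with DMSO and 2, 1 and 2 with lapatinib. The FOXA1 siRNA libraries with DMSO lay above those with lapatinib and all other compared groups overlapped, no library passed 6 counts, and no fold change is given.

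B2M, the shared light chain of all class I molecules, was highest where FOXA1 siRNA and lapatinib were combined. It had 8217, 8994 and 7777 normalized counts in NT siRNA with DMSO and 8839, 10305 and 8492 with lapatinib. After FOXA1 siRNA it had 9391, 9808 and 9438 in DMSO and 12388, 13219 and 11448 in lapatinib. The 3 libraries with both treatments stood above all others, and the NT siRNA groups overlapped. Lapatinib raised B2M by 1.3-fold with FOXA1 siRNA (log2 fold change 0.38 ± 0.06, adjusted p = 0.000525). With NT siRNA the log2 fold change was 0.17 ± 0.08 (adjusted p = 0.124), positive in 3 of 3 same-numbered pairs, and with the replicate block it was called (0.00431).

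FOXA1 siRNA raised B2M by 1.33-fold in lapatinib (0.42 ± 0.08, adjusted p = 0.00388) and by 1.16-fold in DMSO (0.21 ± 0.06, adjusted p = 0.0244). The difference of the lapatinib response between the siRNAs was 0.23 ± 0.11 (adjusted p = 0.243, and 0.0129 with the replicate block). The call in DMSO was lost with all 12 libraries in 1 model (0.0539), without replicate 1 or 3 of NT siRNA (0.0801 and 0.0787) and without replicate 1, 2 or 3 of FOXA1 siRNA (0.0538, 0.0702 and 0.0619).

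TAP1, one chain of the peptide transporter, fell with lapatinib in NT cells and rose with it after FOXA1 siRNA. It had 811, 848 and 631 normalized counts in NT siRNA with DMSO and 571, 641 and 489 with lapatinib. In FOXA1-depleted cells TAP1 had 453, 437 and 410.1 in DMSO and 567, 629 and 489 in lapatinib. The FOXA1 siRNA libraries in DMSO were the lowest of the 12, and both lapatinib groups lay in the same range, between 489 and 641. FOXA1 siRNA lowered TAP1 by 1.75-fold in DMSO (log2 fold change -0.80 ± 0.12, adjusted p = 0.00116), a call that held with any 1 library left out. In lapatinib the siRNAs differed by -0.02 ± 0.12 (adjusted p = 0.912).

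With NT siRNA lapatinib lowered TAP1 by 1.33-fold (-0.41 ± 0.14, adjusted p = 0.0321), in 3 of 3 same-numbered pairs, although replicate 3 in DMSO at 631 lay below replicate 2 in lapatinib at 641. With FOXA1 siRNA lapatinib raised it by 1.3-fold (0.38 ± 0.10, adjusted p = 0.0119) with no overlap. The fall with NT siRNA was no longer called without replicate 1 or 2 of DMSO (0.0959 and 0.0706) or without replicate 1 or 3 of lapatinib (0.0738 and 0.111).

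TAP2, the other chain of the transporter, had the largest called change of the genes in the 4 comparisons. It had 1259.7, 1323 and 1086 normalized counts in NT siRNA with DMSO and 619, 662 and 533 with lapatinib. After FOXA1 siRNA it had 1111, 1139 and 1032 in DMSO and 943, 992 and 827 in lapatinib. The 3 libraries of NT siRNA with lapatinib were below the other 9. Lapatinib lowered TAP2 by 1.99-fold with NT siRNA (log2 fold change -0.99 ± 0.11, adjusted p = 9.10e-05) and by 1.18-fold with FOXA1 siRNA (-0.24 ± 0.08, adjusted p = 0.0285). The second of these calls was lost without replicate 1 or 2 of DMSO (0.0793 and 0.0711) or without replicate 1 or 3 of lapatinib (0.065 and 0.112).

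Under lapatinib TAP2 was 1.51-fold higher with FOXA1 than with NT siRNA (0.60 ± 0.10, adjusted p = 0.00189). In DMSO it differed by -0.15 ± 0.09 (adjusted p = 0.20, and 0.0251 with the replicate block).

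The lapatinib responses of TAP1 and TAP2 differed between the siRNAs in a test of the interaction between siRNA and drug in all 12 libraries. The difference, response with FOXA1 siRNA minus response with NT siRNA, was 0.80 ± 0.18 for TAP1 (adjusted p = 0.0224) and 0.77 ± 0.14 for TAP2 (adjusted p = 0.00721). These were the 2 calls among the 8 genes, both positive, where 3.99% of 14012 genes had a positive and 3.20% a negative difference. With the replicate block there were 3 positive calls, B2M added, where 11.1% of genes were positive and 9.22% negative. The median difference was 0.19 for the 8 genes and 0.01 for all genes.

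In same-numbered pairs the log2 ratio of lapatinib to DMSO for TAP1 was -0.51, -0.40 and -0.37 with NT siRNA and 0.33, 0.53 and 0.25 with FOXA1 siRNA. For TAP2 it was -1.02, -1.0 and -1.03 with NT siRNA and -0.24, -0.20 and -0.32 with FOXA1 siRNA. The pairs of the siRNAs did not overlap for either gene, and of the transporter genes TAP1 changed direction and TAP2 did not. The call of TAP1 was lost without replicate 1 of NT siRNA with DMSO (0.0601), replicate 3 of NT siRNA with lapatinib (0.0569), replicate 3 of FOXA1 siRNA with DMSO (0.0613) or replicate 1 of FOXA1 siRNA with lapatinib (0.0538), and that of TAP2 held with any 1 left out.

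**Figure D3:**
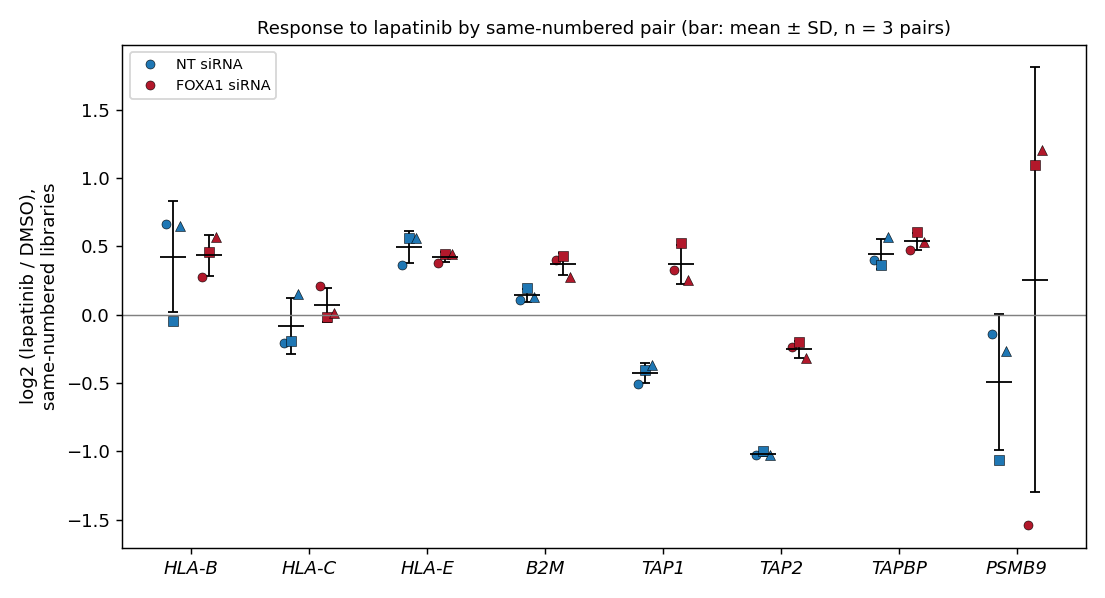
Log2 ratio of lapatinib to DMSO between same-numbered libraries (y axis) for the 8 genes tested, with NT siRNA (blue) and FOXA1 siRNA (red). Symbols are the replicate numbers and bars the mean ± SD of 3 pairs. TAP1 and TAP2 separate by siRNA, HLA-E and TAPBP do not, and the pairs of PSMB9 scatter widely.

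TAPBP, which encodes tapasin, rose with lapatinib and did not pass the test for FOXA1 siRNA. It had 3961, 4967 and 3147 normalized counts in NT siRNA with DMSO and 5216, 6379.9 and 4662 with lapatinib. After FOXA1 siRNA it had 3892, 4259.7 and 3409 in DMSO and 5407, 6461 and 4931 in lapatinib. Replicate 2 was the highest and replicate 3 the lowest in all 4 groups, so the NT groups overlapped although each same-numbered pair rose. Lapatinib raised TAPBP by 1.46-fold with FOXA1 siRNA (log2 fold change 0.55 ± 0.11, adjusted p = 0.00283) and by 1.36-fold with NT siRNA (0.45 ± 0.17, adjusted p = 0.0486).

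The difference between the responses of TAPBP was 0.11 ± 0.23 (adjusted p = 0.844), and FOXA1 siRNA gave -0.05 ± 0.16 in DMSO and 0.04 ± 0.13 in lapatinib. The call with NT siRNA was lost with RLE scaling (0.0507), upper-quartile scaling (0.059) and a minimum of 10 counts in every library (0.0524). It was also lost without replicate 1 or 3 of DMSO (0.113 and 0.147) or without replicate 1 or 2 of lapatinib (0.0875 and 0.141), and had an adjusted p of 0.000161 with the replicate block.

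PSMB9 had few counts and passed no test. It had 16, 23 and 9 counts in NT siRNA with DMSO, 12, 11 and 7 with lapatinib, 15, 14 and 7 in FOXA1 siRNA with DMSO and 5, 29 and 15 with lapatinib. All groups overlapped, and the lowest and the highest library belonged to the same group. The log2 fold changes had standard errors between 0.45 and 0.57 in the 4 comparisons, and the smallest adjusted p was 0.333.

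**Figure D4:**
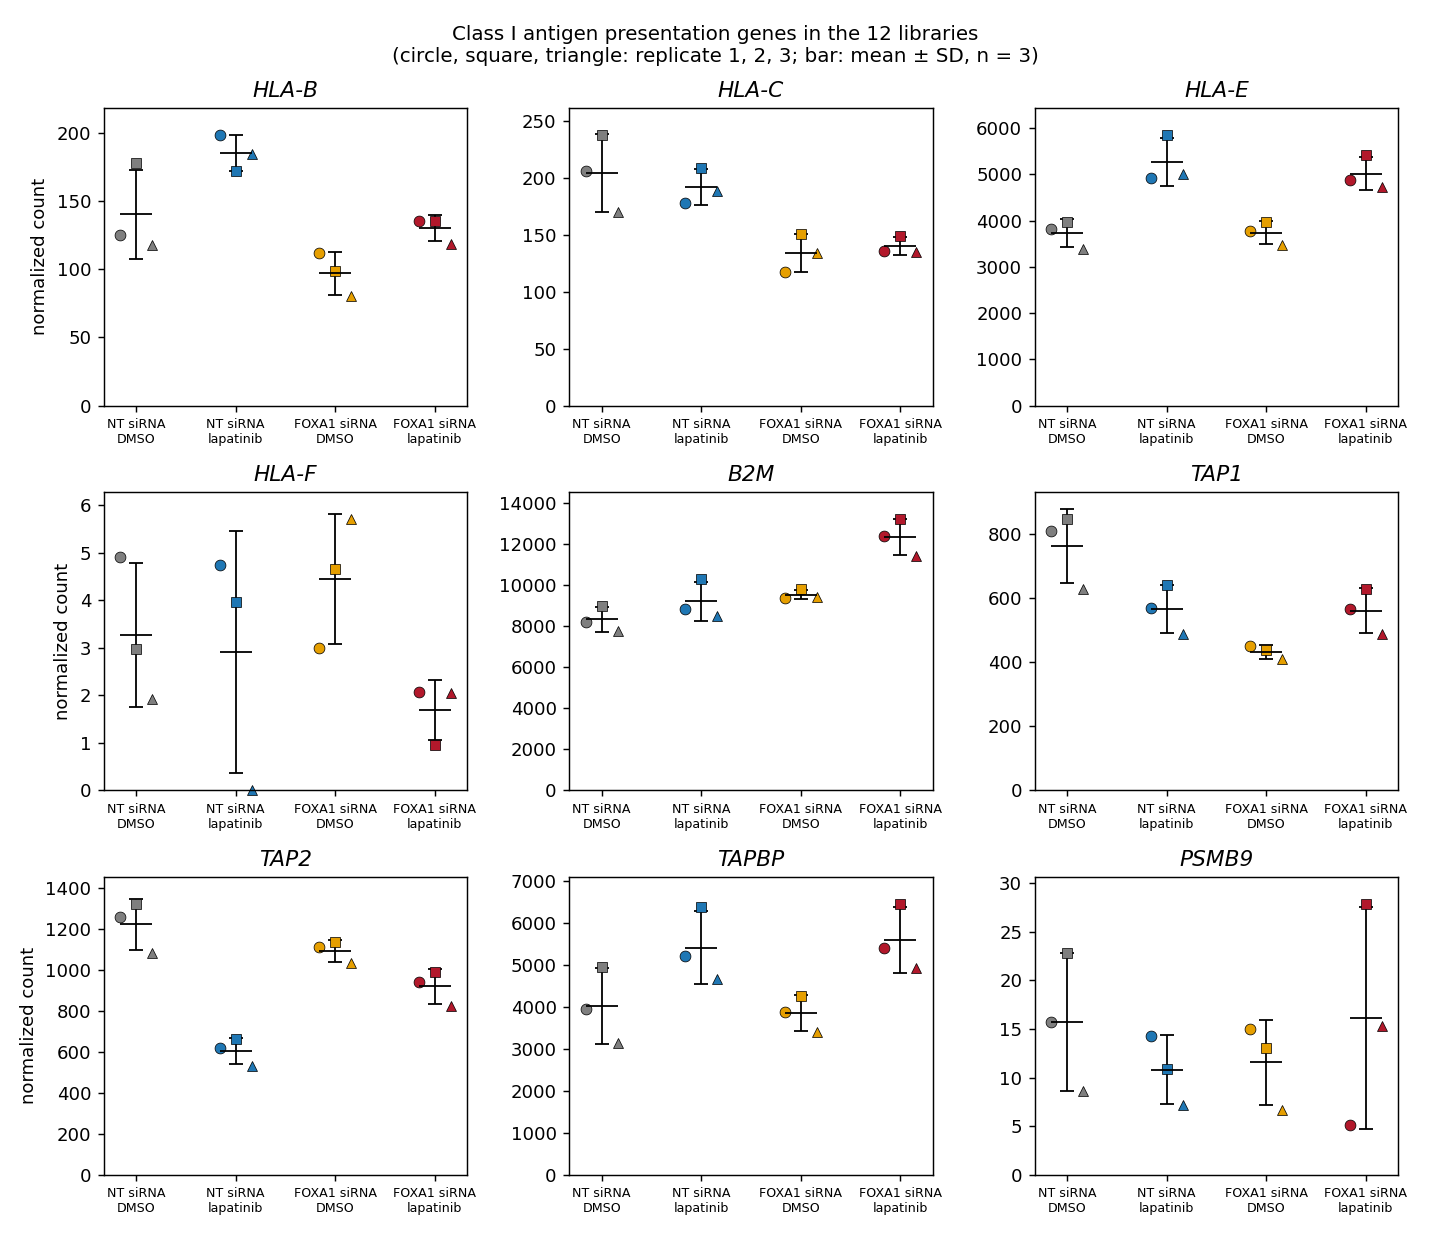
Normalized counts (y axes from 0) of the 9 genes in the 12 libraries, with 1 symbol per replicate number and bars at the mean ± SD of 3 libraries. TAP2 drops in NT siRNA with lapatinib, TAP1 is lowest in FOXA1 siRNA with DMSO, and B2M is highest with both treatments.

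The constitutive catalytic subunits of the proteasome fell with lapatinib. Of 17 other peptide supply genes tested, 3 rose and 7 fell with lapatinib and NT siRNA, and 4 rose and 7 fell with lapatinib and FOXA1 siRNA. That is 17.6% and 23.5% higher and 41.2% lower in both, beside 30.5% and 29.0% higher and 29.2% and 29.1% lower among all genes. The proteasome genes PSMB5, PSMB6 and PSMB7, the catalytic subunits that PSMB8, PSMB9 and PSMB10 replace in the immunoproteasome, fell with NT siRNA, with log2 fold changes of -0.39, -0.57 and -0.26. The activator genes PSME2 and PSME3 gave -0.74 and -0.69, and THOP1, a cytosolic peptidase that destroys peptides, -1.23. All 6 also fell with lapatinib under FOXA1 siRNA, THOP1 with -1.20.

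The immunoproteasome gene PSMB8, at 96 to 260 counts, was called in no comparison without the replicate block. With the block it was called for lapatinib with FOXA1 siRNA (0.63 ± 0.25 without the block, adjusted p = 0.06 without and 0.000335 with it), for FOXA1 siRNA in DMSO (-0.48 ± 0.28, 0.205 and 0.00453) and for the interaction (0.59 ± 0.42, 0.468 and 0.0126). PSMB10 gave 0.62 ± 0.12 for lapatinib with FOXA1 siRNA (adjusted p = 0.00233) and 0.38 ± 0.19 with NT siRNA (adjusted p = 0.124, and 0.00116 with the block). ERAP1, the aminopeptidase that trims peptides in the endoplasmic reticulum, rose in all 4 comparisons, by 0.56 and 0.54 with lapatinib and by 0.53 and 0.51 with FOXA1 siRNA. After FOXA1 siRNA 3 of the 17 genes rose and 1 fell in DMSO, and 5 rose and 1 fell in lapatinib, with TPP2, a large cytosolic peptidase, at 0.53 and 0.63. The shares were 17.6% and 29.4% higher and 5.88% lower in both, beside 21.9% and 22.7% higher and 21.3% and 22.2% lower among all genes. With the replicate block the higher and lower counts were 7 and 7 for lapatinib with FOXA1 siRNA, 5 and 3 for FOXA1 siRNA in DMSO and 7 and 2 in lapatinib. The block shares of all genes were 34.5%, 30.3% and 30.6% higher and 34.1%, 30.2% and 31.1% lower.

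Among 9 other genes of loading and folding, lapatinib with NT siRNA lowered 3 and raised none, and with FOXA1 siRNA raised 1 and lowered 2. The 33.3% and 22.2% lower lie near the 29.2% and 29.1% of all genes. The shares higher were 0% and 11.1%, beside 30.5% and 29.0% of all genes. CALR and PDIA3, whose products calreticulin and ERp57 sit in the loading complex beside tapasin, gave -0.31 and -0.16 with NT siRNA. After FOXA1 siRNA in DMSO 2 rose and 4 fell, and in lapatinib 2 rose and none fell, where 21.9% and 22.7% of all genes were higher and 21.3% and 22.2% lower. CANX, encoding the chaperone calnexin that binds new heavy chains, rose by 0.66 ± 0.04 in DMSO and 0.88 ± 0.05 in lapatinib, while CALR gave -0.38 ± 0.04 and -0.10 ± 0.06, of which the first was called and the second only with the replicate block (0.216 without and 0.02 with it). TAPBPL, the tapasin-related peptide editor, had 44 to 113 counts and was called only with the block, for lapatinib with FOXA1 siRNA (0.38 ± 0.25, 0.216 without and 0.0302 with it). The replicate block moved the count of lower genes from 3 to 6 for lapatinib with NT siRNA and from 0 to 4 for FOXA1 siRNA in lapatinib, and the counts of higher genes became 0, 2, 2 and 3 in the 4 comparisons. Among all genes the block gave 34.5%, 34.5%, 30.3% and 30.6% higher and 32.8%, 34.1%, 30.2% and 31.1% lower.

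Of 22 regulators of class I transcription tested, 10 rose and 6 fell with lapatinib and NT siRNA, and 11 rose and 5 fell with FOXA1 siRNA, while FOXA1 siRNA raised 2 and lowered 8 in DMSO and raised 1 and lowered 7 in lapatinib. In the 4 comparisons 45.5%, 50%, 9.09% and 4.55% were higher and 27.3%, 22.7%, 36.4% and 31.8% lower, beside 30.5%, 29.0%, 21.9% and 22.7% higher and 29.2%, 29.1%, 21.3% and 22.2% lower among all genes. NLRC5, the transactivator of class I genes, was at 5 to 20 counts and not called. Of its partners at the class I promoter, RFX5 fell with lapatinib with -0.69 and -0.48, and RFXANK fell with FOXA1 siRNA with -0.55 and -0.45. The subunits of the CCAAT-binding factor did not move together with FOXA1 siRNA. NFYB fell, with -0.61 in DMSO and -1.07 in lapatinib, NFYA rose, with 0.18 and 0.37 (adjusted p = 0.0397 and 0.0012), and NFYC gave -0.17 and -0.33, called in lapatinib (adjusted p = 0.106 and 0.00213) and with the block also in DMSO (0.00496).

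IRF1, the interferon regulatory factor that acts on the TAP1 start region, rose with lapatinib by 0.80 ± 0.29 with NT siRNA (adjusted p = 0.0401) and 1.05 ± 0.21 with FOXA1 siRNA (adjusted p = 0.0025). IRF9 rose by 1.38 and 1.30, and STAT2 by 0.54 and 0.44. EZH2, the histone methyltransferase of the polycomb complex, fell with lapatinib with -1.38 and -1.10. No gene of this list had a called difference in its lapatinib response between the siRNAs, while with the replicate block 3 were positive and 3 negative. The block also moved the higher and lower counts to 4 and 12 for FOXA1 siRNA in DMSO and to 5 and 9 in lapatinib. Its shares of all genes were 30.3% and 30.6% higher and 30.2% and 31.1% lower, and 11.1% positive and 9.22% negative for the differences.

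**Figure D5:**
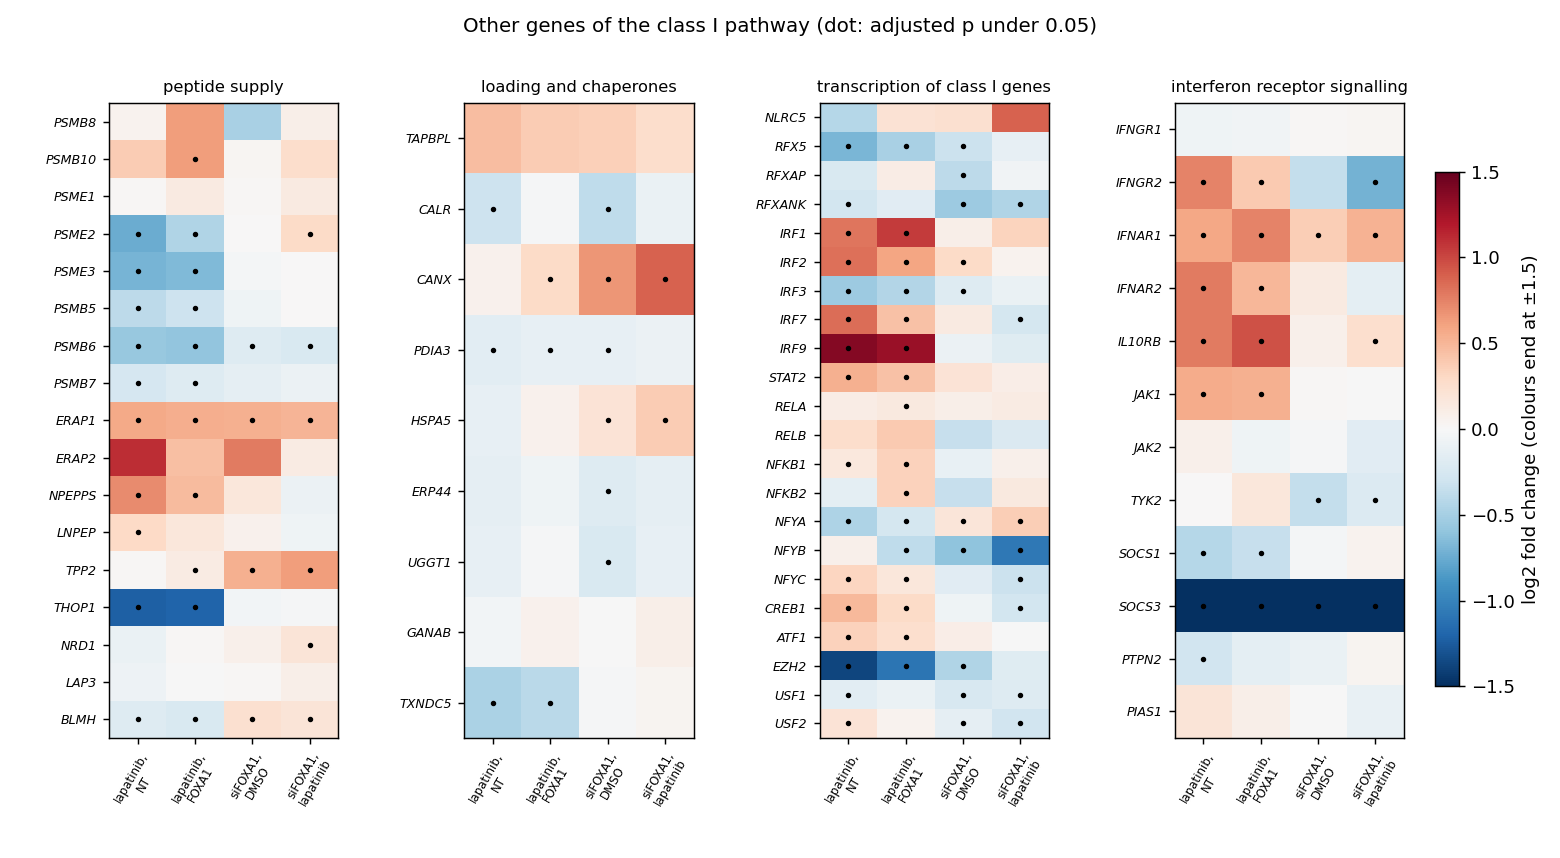
Log2 fold change (colour, red higher and blue lower, limits ±1.5) of other class I pathway genes in the 4 comparisons, with a dot where the adjusted p is under 0.05. The constitutive proteasome genes are blue under lapatinib, ERAP1 is red in all columns, and most dots of the transcription list under FOXA1 siRNA are on blue.

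The interferon genes themselves were absent or nearly so, with at most 1 count in any library for each of 9 listed, which is below the floor of 3 counts used here as the limit of detection. Of 12 receptor and signalling genes tested, 5 rose and 3 fell with lapatinib and NT siRNA, and 5 rose and 2 fell with FOXA1 siRNA. That is 41.7% higher in both beside 30.5% and 29.0% of all genes, and 25% and 16.7% lower beside 29.2% and 29.1%. IFNAR1, IFNAR2, IFNGR2, IL10RB and JAK1 were the 5 that rose in both, IFNAR1 by 0.58 and 0.74. SOCS3, an inhibitor of JAK signalling at 9 to 140 counts, fell in all 4 comparisons, with -1.62 and -1.51 for lapatinib and -1.68 and -1.57 for FOXA1 siRNA. FOXA1 siRNA raised 1 and lowered 2 in DMSO, and raised 2 and lowered 3 in lapatinib. That is 8.33% and 16.7% higher beside 21.9% and 22.7% of all genes, and 16.7% and 25% lower beside 21.3% and 22.2%. The block gave 6 higher and 3 lower, 6 and 2, 1 and 3, and 2 and 4 genes of this list in the 4 comparisons. Of all genes it gave 34.5%, 34.5%, 30.3% and 30.6% higher and 32.8%, 34.1%, 30.2% and 31.1% lower.

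Of 24 interferon-stimulated genes tested outside class I, 11 rose and 3 fell with lapatinib and NT siRNA, and of 26 tested with FOXA1 siRNA 15 rose and 2 fell, with median log2 fold changes of 0.70 and 1.02 beside 0.03 and 0.01 for all genes tested. The shares higher were 45.8% and 57.7%, beside 30.5% and 29.0% of all genes. A gene was tested where 1 library of the fit reached 10 counts, so some genes of this list were tested only through their lapatinib libraries. Examples are IFIT3 with NT siRNA (means of 1.97 normalized counts in DMSO and 8.79 in lapatinib) and RSAD2 with FOXA1 siRNA (2.59 and 9.62). All genes passed the same filter, and its part in these counts and medians was not tested. SAMD9, at 172 to 860 counts, rose by 1.72 ± 0.12 and 2.07 ± 0.14, and IFIH1, a sensor of viral RNA, by 0.75 ± 0.06 and 0.90 ± 0.08. USP18, an inhibitor of interferon receptor signalling, fell with -1.22 and -0.86, and MX1, a common marker of interferon action, was not called at 8 to 22 counts. OAS3 and ISG15 also fell with lapatinib and NT siRNA, with -1.12 and -0.78, and were not called with FOXA1 siRNA (-0.39 and -0.30). For lapatinib BST2 was called lower only with FOXA1 siRNA, with -0.76. FOXA1 siRNA raised 3 and lowered 3 in DMSO and raised 7 and lowered 2 in lapatinib, 12.5% and 26.9% higher beside 21.9% and 22.7% of all genes. GBP2, a guanylate-binding protein gene, rose in all 4, by 1.20 and 1.39 with lapatinib and 1.85 and 2.04 with FOXA1 siRNA. ISG20 had a negative difference of the lapatinib responses, -0.77 ± 0.19 (adjusted p = 0.0303), and was the only gene of the list with a called one. With the replicate block FOXA1 siRNA raised 8 and lowered 4 in DMSO and raised 13 and lowered 3 in lapatinib, and 4 lapatinib differences were positive and 1 negative. In those fits 30.3% and 30.6% of all genes were higher and 30.2% and 31.1% lower, and 11.1% of differences were positive and 9.22% negative.

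Of 18 other class I and class I-like genes listed, 10, 8, 10 and 10 could be tested in the 4 comparisons, and 3 rose and 3 fell, 2 rose and 3 fell, 2 rose and 1 fell, and 3 rose and 1 fell. With lapatinib and NT siRNA that is 30.0% in each direction, near the 30.5% and 29.2% of all genes. In the later comparisons, in the same order, 25%, 20% and 30% were higher and 37.5%, 10% and 10% lower. Of all genes 29.0%, 21.9% and 22.7% were higher and 29.1%, 21.3% and 22.2% lower. MR1, which presents vitamin metabolites to MAIT cells, rose in all 4, by 0.92 and 0.62 with lapatinib and 0.91 and 0.61 with FOXA1 siRNA. Among the ligands of the natural killer receptor NKG2D, ULBP1 rose with lapatinib (1.14 and 0.60) and ULBP3 fell (-0.93 and -0.94), while MICA did not pass 2 counts and MICB did not pass 6. The block gave 4 higher and 4 lower, 3 and 3, 4 and 1, and 3 and 3 genes of this list in the 4 comparisons. Of all genes it gave 34.5%, 34.5%, 30.3% and 30.6% higher and 32.8%, 34.1%, 30.2% and 31.1% lower.

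MHC class II genes were mostly not expressed. CIITA, their transactivator, and HLA-DRA were at 0 counts in every library, and CD74, the invariant chain gene, did not pass 5 counts. HLA-DMA had 75 to 184 counts and rose with lapatinib by 0.91 ± 0.18 and 0.67 ± 0.11. HLA-DQB1 had 15 to 43 counts.

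Between HLA-F and TAPBP on chromosome 6, 148 other genes were counted in the same way. With lapatinib, 26 rose and 27 fell of 91 tested with NT siRNA, and 25 rose and 23 fell of 90 with FOXA1 siRNA. The shares higher were 28.6% and 27.8% (30.5% and 29.0% of all genes) and lower 29.7% and 25.6% (29.2% and 29.1%). With FOXA1 siRNA, 12 rose and 24 fell of 89 in DMSO and 9 rose and 19 fell of 92 in lapatinib. The shares higher were 13.5% and 9.78% (21.9% and 22.7% of all genes) and lower 27.0% and 20.7% (21.3% and 22.2%). For the interaction 4 of 93 were positive and 2 negative, 4.30% and 2.15% beside 3.99% and 3.20% of all genes.

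Across the 12 libraries the genes whose log2 levels were most like those of each member were largely outside the pathway. The comparison was made over 10812 genes with a mean normalized count of at least 100, and Pearson's r is a description over libraries that share groups and replicate numbers. FOXK2 (r = 0.988) and EIF4A1 (0.976) were nearest to TAP2, and LMCD1 (0.944) was nearest to TAP1. PRSS8 (0.983) and NET1 (0.982) were nearest to HLA-E, DSG2 (0.981) and IL6R (0.970) to B2M, and ZSWIM4 (0.959) and APOL6 (0.956) to TAPBP. UAP1L1 (0.961) and RAC3 (0.956) were nearest to HLA-C, and KREMEN1 (0.930) and CUX1 (0.923) to HLA-B. For PSMB9 the highest values were 0.779 for LOC339047 and 0.762 for MTMR11.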

How the data were processed

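The members and gene lists were chosen with earlier results of these data known. The authors deposited for each library expected counts, which are estimated read counts per gene and need not be whole, and TPM, for genes named by symbol and Entrez ID. By the methods, STAR aligned the reads to hg38 and Salmon quantified them. The columns are those of RSEM, which the submitters' processing notes name with DESeq, R 3.2.2 and DESeq2 1.12.3, and use of strand in counting is not given in the sources used here. The labels name a stranded KAPA kit in the protocol and a TruSeq kit among the characteristics. The methods give 24 h between transfection and drug.

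Expected counts were rounded to whole numbers and tested in R 4.3.3 with edgeR 4.0.16 (TMM, glmQLFit and glmQLFTest) for genes that reached 10 counts in 1 or more libraries of the fit, with Benjamini-Hochberg adjustment. The SE of a log2 fold change is its size divided by the square root of the F statistic. DESeq2 1.42.0, which the methods name, was run as an alternative, as were RLE and upper-quartile scaling, no count minimum, 10 counts in every library, all 12 libraries in 1 model, a replicate block, a log2 fold change minimum of 1, and leaving out each library. Tables and plots were made with Python 3.11.15, pandas 2.3.3, numpy 2.4.6 and matplotlib 3.10.9. Fits were tested on simulated data.

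Deviations from the group mean were correlated between same-numbered libraries of different groups in all 18 pairs (r between 0.244 and 0.627, mean 0.393, over 12170 genes), and the mean was -0.185 for the 36 pairs of different numbers. Deviations within a group cancel out, so the second mean is tied to the first and is not separate evidence of pairing. The numbers come from the labels and were taken to pair the libraries only in the replicate block and in the same-numbered pairs. The main fits did not use them. The genes named are the 9 members, FOXA1, genes of the lists and markers, and for each member tested the 2 genes outside the 9 with the highest Pearson r. Some genes that these rules or lists name, and the planned sum of the heavy chain genes, are not reported here, and counts over lists leave those genes out.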

Additional observations from a re-analysis of the deposited data

Results flagged for a closer look

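By the interaction test, 3.99% of all 14012 genes had a positive and 3.20% a negative difference in lapatinib response between FOXA1 and NT siRNA. None of the 17 peptide supply, 22 transcription, 12 receptor signalling or 10 other class I-like genes tested had one. It was called for 8 of the genes in the class I, pathway and marker lists. They are listed as a description and not as a surplus over the shares of all genes. They were 2 of 8 class I genes, 2 of 9 loading genes and 1 of 26 interferon-stimulated genes tested. Of the markers, 1 was positive and 1 negative of 7 epithelial, and 1 was positive of 2 endothelial. The 3 class II genes and 4 leukocyte markers tested had none. The differences, in log2 units and as response with FOXA1 siRNA minus response with NT siRNA, were 0.80 for TAP1 and 0.77 for TAP2, the transporter chains, 0.31 for CALR, 0.24 for CANX and -0.77 for ISG20. Among the cell type markers they were 0.53 for EPCAM, -0.31 for ERBB2 and 1.30 for CDH5, and their part in the other results was not tested. CALR fell with lapatinib in NT cells and gave -0.02 with FOXA1 siRNA, where the test was not passed. CANX gave 0.06 in NT cells, where the test was not passed, and rose by 0.28 with FOXA1 siRNA. ISG20 rose by 0.69 in NT cells and gave -0.10 with FOXA1 siRNA, where the test was not passed.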

How the results depend on the processing

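Each single-gene result was counted once under each alternative, so the same result enters these totals many times. Under the alternatives that used all libraries, 255 such counts kept their side of the threshold, 5 gained and 6 lost the call. With 1 library left out 259 kept it, 1 gained and 28 lost it. No called result changed direction. For lapatinib with NT siRNA the count of genes higher was 1 with RLE scaling, 1 with upper-quartile scaling and 1 with 10 counts in every library, and for FOXA1 siRNA in DMSO it was 0 with all 12 libraries in 1 model. With the replicate block, which pairs libraries by number, 4 genes were lower for FOXA1 siRNA in DMSO, and among the 9 genes the block changed no call other than those given with them. When calls also needed a 2-fold change, a log2 size of 1, each count of higher or lower genes in the 4 comparisons was 0, and for lapatinib with NT siRNA this rests on TAP2, at -0.99 ± 0.11, which was past 1 in size (-1.0 to -1.02) in 6 of 7 other settings with all libraries and (-1.02 to -1.09) in 3 of 6 with 1 left out. With 1 library left out the counts of genes higher and lower were 1 to 3 and 1 to 2 for lapatinib with NT siRNA, 4 to 5 and 0 to 1 for lapatinib with FOXA1 siRNA, 0 to 1 and 1 to 2 for FOXA1 siRNA in DMSO, 2 and 2 for FOXA1 siRNA in lapatinib, 1 to 2 and 0 for the interaction. The DESeq2 adjusted p of PSMB9 in the interaction was not given by the tool. Depth limited HLA-F, which stayed under the count minimum, and counting intervals cover counting error only.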
